A study of Mus musculus with 6 samples.

Results

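Calmodulin, its kinase CaMKII, its phosphatase calcineurin and the related calcium sensor S100A1 were followed as RNA in the hearts of 3 wild-type mice (WT2368, WT2379 and WT2378) and 3 SRAKO mice (SRAKO2365, SRAKO2371 and SRAKO2372). Both groups had received isoproterenol, an agonist of beta-adrenoceptors that enlarges the heart, over 4 weeks. SRAKO is read, from the title of the study, as loss of SRA, the steroid receptor RNA activator made by the gene Sra1. The allele, strain, age and sex were not given in the sources used here, and hearts without isoproterenol were not analysed here. Nothing in the labels says that the hearts came from separate litters, so p-values measure the spread between these samples. The set holds 9 genes of the 25901 rows in the table, picked by symbol: Calm2, Calm3, Camk2d, Camk2g, Camk2b, Ppp3ca, Ppp3cb, Ppp3r1 and S100a1. Each symbol matched 1 row. Values are FPKM, read coverage scaled to the length of the RNA and to the size of the library.

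Calmodulin is a small protein that binds calcium entering the cytosol at each heartbeat and then switches its target enzymes on. CaMKII is a multimeric kinase that calcium-bound calmodulin activates and that phosphorylates channels and calcium-handling proteins of the cardiomyocyte. Calcineurin is a phosphatase of a catalytic A subunit and a regulatory B subunit, and it dephosphorylates NFAT so that this factor enters the nucleus. Both enzymes are studied as signals that link beta-adrenergic stimulation to cardiac growth. S100A1 is a calcium-binding protein of the same EF-hand type that is abundant in cardiomyocytes.

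Calm2 and Calm3 are shown first because they encode 1 and the same protein from different RNAs, so their RNAs feed a single product. The first 150 coding bases are given 5′ to 3′ from the GENCODE M21 transcripts, with capitals at the 23 positions where the genes differ.
Calm2: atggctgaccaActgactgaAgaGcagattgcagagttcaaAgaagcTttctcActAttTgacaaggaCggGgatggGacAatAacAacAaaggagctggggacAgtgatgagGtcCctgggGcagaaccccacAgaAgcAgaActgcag
Calm3: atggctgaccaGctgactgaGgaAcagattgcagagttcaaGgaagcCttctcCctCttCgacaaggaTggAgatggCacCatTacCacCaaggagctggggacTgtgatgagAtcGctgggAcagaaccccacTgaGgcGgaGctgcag

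Across the whole coding sequence of 447 bases, Calm2 and Calm3 differed at 78 bases. These fell in 76 of 149 codons, of which 0 changed the encoded amino acid. The longest identical run was 17 bases. The read length was not given in the sources used here.

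The CaMKII genes of the set are shown around the codon of the threonine that the kinase phosphorylates on itself, which keeps it active after calcium has fallen. The codon is in capitals and stands at position 287 of the longest coding sequence of each gene.
Camk2d: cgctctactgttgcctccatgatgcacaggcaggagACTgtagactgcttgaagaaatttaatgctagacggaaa
Camk2g: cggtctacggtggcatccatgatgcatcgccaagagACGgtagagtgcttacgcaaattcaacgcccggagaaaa
Camk2b: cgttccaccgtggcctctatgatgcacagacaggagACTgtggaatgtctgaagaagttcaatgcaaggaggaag

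In these 75 bases Camk2d was identical to Camk2b at 78.7% of positions and to Camk2g at 72% (Camk2g against Camk2b, 68%). The longest shared runs within the window were 8 to 11 bases.

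Sra1, the check of the labels, had FPKM of 4.40, 6.31 and 4.23 in WT2368, WT2379 and WT2378 and 1.96, 1.78 and 2.05 in SRAKO2365, SRAKO2371 and SRAKO2372, with no overlap between the groups. Its SRAKO mean was 38.8% of WT, a log2 difference of -1.01. The fit over all tested rows did not call it (limma, Benjamini-Hochberg adjusted p = 0.258). Cardiomyocyte markers, as the sum of 7 genes, were at 16105 to 16820 in WT and 14859 to 18124 in SRAKO. WT2368 and SRAKO2371 carried more mitochondrial ribosomal RNA: mt-Rnr1 was at 4548 and 1896, against 879 to 1122 in the other hearts. The second such RNA, mt-Rnr2, was at 3795 and 1993, against 933 to 1311. An FPKM of 1 stood for about 8365 to 13141 aligned bases per kilobase of RNA, if the steps between the lowest values were 1 aligned base each. That was assumed and not tested.

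S100a1 stood highest with a mean of 733.6 over the 6 hearts, higher than 99.6% of the 10201 rows that were tested. Calm3 and Calm2 followed at 55.5 and 52.1, each higher than 95% of tested rows. Ppp3r1 was at 8.17, Camk2g at 3.79, Ppp3cb at 3.16, Ppp3ca at 3.13, Camk2d at 1.86 and Camk2b at 0.790. Neighbours in this order overlapped between hearts for Calm3 and Calm2 and for Camk2g, Ppp3cb and Ppp3ca. Within hearts, Camk2d was above Camk2b in 6 of 6, although their ranges over hearts overlapped. Camk2d stayed below Camk2g in 6 of 6 hearts, with a highest value of 2.39 against a lowest of 3.32.

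These levels rest on the length by which the authors divided, which was not given. The row of Camk2d joins 26 transcripts, 11 of them retained introns, whose exons cover 20387 bases together, while its longest coding transcript has 5524. For Camk2g the figures are 17 transcripts, 6401 and 3703 bases. The part of length in the gap between such genes was not tested. Whether the same length was used for a gene in every heart, as the comparison of genotypes would need, was not given either.

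No gene of the set differed between genotypes beyond the spread between hearts. A row was tested when 3 or more hearts reached an FPKM of 1, which took in 8 of the 9 genes and left out Camk2b. Of these 8, limma with Benjamini-Hochberg adjustment over all 10201 rows called 0 (adjusted p = 0.999 for each) and 0 had an unadjusted p under 0.05. Among all tested rows 0.0196% were called and 3.46% had an unadjusted p under 0.05. The same fit did not call Sra1 either, so 0 called does not show that these genes were unchanged. The genotypes overlapped in all 8 genes, while 8.05% of all tested rows had groups that did not overlap (3.76% with SRAKO lower). Log2 differences, SRAKO minus WT on log2(FPKM + 1), ran from -0.24 to 0.08, with 4 genes above and 4 below 0 and a median of 0.01, against 0.01 over all tested rows. None of the 8 lay beyond 0.3 in either direction, as 6.14% of all tested rows did. With a pseudocount of 0.1 Camk2d was at -0.33, and Camk2g was at -0.38 without both WT2368 and SRAKO2371 and at -0.31 with array weights. In whole-heart RNA, fewer cells of a type and less RNA per cell cannot be told apart.

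**Figure D1:**
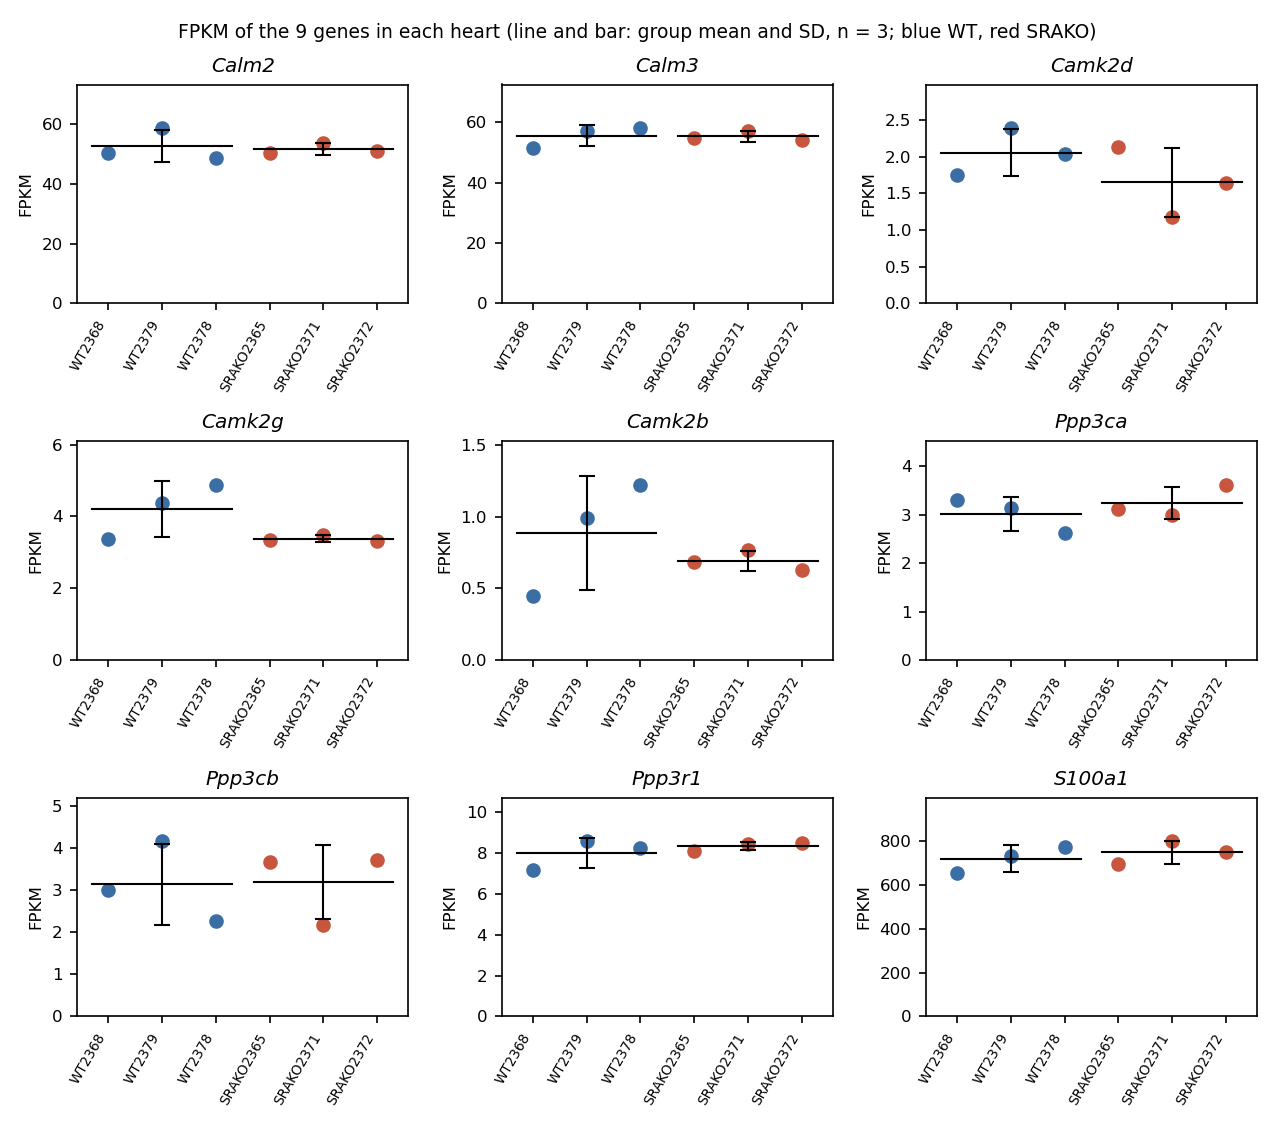
Each panel plots the FPKM of 1 gene (vertical axis from 0) in the 6 hearts, with points for hearts, a line at the mean of each genotype and a bar of 1 SD (n = 3 each). WT and SRAKO points overlap in each of the 9 panels, and Camk2d, Camk2b and Ppp3cb show the widest scatter relative to their level.

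Calm2, one of the genes that encode calmodulin, had FPKM of 50.4, 58.5 and 48.6 in WT2368, WT2379 and WT2378 and 50.2, 53.7 and 50.9 in SRAKO2365, SRAKO2371 and SRAKO2372. WT2379 was the highest heart and WT2378 the lowest, and every SRAKO heart lay between them. The means were 52.5 ± 5.28 and 51.6 ± 1.84 (SD, n = 3 each). The log2 difference was -0.02 with a 95% interval from -0.27 to 0.23, which is 0.827-fold to 1.18-fold in FPKM + 1 (limma, Benjamini-Hochberg adjusted p = 0.999). GRCm38 places Calm2 at chr17:87433412-87446935 (minus strand).

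Calm3 had FPKM of 51.6, 57.1 and 58.0 in the WT hearts and 54.7, 57.3 and 53.99 in the SRAKO hearts, in the same order of hearts. WT2368 was the lowest heart and the others lay within 53.99 to 58.0. The means were 55.6 ± 3.47 and 55.3 ± 1.71 (SD, n = 3 each), a log2 difference of -0.00 with a 95% interval from -0.24 to 0.23 (limma, Benjamini-Hochberg adjusted p = 0.999). The highest heart was 1.12 times its lowest, the narrowest range of the 9 genes. Calm3 sits on another chromosome, where GRCm38 places it at chr7:16915379-16924114 (minus strand).

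Camk2d encodes the delta subunit of CaMKII, generally described as the main one in heart muscle. It had FPKM of 1.75, 2.39 and 2.03 in WT2368, WT2379 and WT2378 and 2.13, 1.18 and 1.65 in SRAKO2365, SRAKO2371 and SRAKO2372. SRAKO2371 and SRAKO2372 were the lowest hearts, while SRAKO2365 was second only to WT2379. The means were 2.06 ± 0.319 and 1.65 ± 0.472 (SD, n = 3 each), 80.3% of WT. The log2 difference was -0.22 with a 95% interval from -0.56 to 0.12 (limma, Benjamini-Hochberg adjusted p = 0.999). It was -0.08 without SRAKO2371, a heart with more mitochondrial ribosomal RNA, and -0.34 without SRAKO2365. GRCm38 places Camk2d at chr3:126596302-126846326 (plus strand).

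Camk2g, the gamma subunit, is expressed in many tissues. It had FPKM of 3.36, 4.38 and 4.88 in WT2368, WT2379 and WT2378 and 3.34, 3.48 and 3.32 in SRAKO2365, SRAKO2371 and SRAKO2372. The SRAKO hearts sat close together, and WT2368 lay among them. The means were 4.205 ± 0.776 and 3.38 ± 0.0867 (SD, n = 3 each), 80.4% of WT. The log2 difference of -0.24 was the largest of the set and had a 95% interval from -0.52 to 0.05 (limma, Benjamini-Hochberg adjusted p = 0.999, unadjusted p = 0.0888). Without WT2368, the heart with the most mitochondrial ribosomal RNA, it was -0.36, and without WT2378 it was -0.14, neither of which passed. The GRCm38 position of Camk2g is chr14:20734875-20794088 (minus strand).

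Camk2b, the beta subunit known mostly from brain and skeletal muscle, had FPKM of 0.445, 0.989 and 1.22 in the WT hearts and 0.683, 0.769 and 0.628 in the SRAKO hearts. WT2368 and WT2378 were the lowest and the highest, with all SRAKO hearts between them. Its highest heart was 2.75 times its lowest, the widest range of the 9 genes. It reached an FPKM of 1 in a single heart and was therefore not tested with the others. When every row was kept, the log2 difference was -0.13 with a 95% interval from -0.54 to 0.27 (limma, Benjamini-Hochberg adjusted p = 0.932). The locus of Camk2b is chr11:5969644-6065748 (minus strand). Markers of nerve and Schwann cells, as the sum of 6 genes, were at 6.44 to 8.68 in WT and 6.34 to 13.5 in SRAKO, and 5 skeletal muscle markers, which include genes of heart muscle, at 711 to 982 and 689 to 826. Of that list Myh1 was listed at 0 in 5 hearts and at 0.00830 in SRAKO2371, while Tnnt3 (0.112 to 2.04) and Atp2a1 (0.260 to 0.612) were above 0 in 6 of 6 hearts. Ckm, Tnnt3 and Atp2a1 were lowest in WT2368, as Camk2b was, while Acta1 was lowest in SRAKO2372 (44.9, against 91.7 in WT2368). The highest heart was WT2378 for Camk2b, Ckm and Acta1, WT2379 for Tnnt3 and SRAKO2371 for Atp2a1. The part of these markers in Camk2b was not tested.

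Camk2a, the fourth subunit and outside the set, was at 1.07, 1.18 and 1.395 in WT and 1.34, 1.86 and 0.942 in SRAKO. Over the 4 genes, CaMKII RNA summed to 6.63, 8.94 and 9.53 FPKM in WT2368, WT2379 and WT2378 and to 7.498, 7.29 and 6.54 in SRAKO2365, SRAKO2371 and SRAKO2372. The mean in SRAKO was 85.0% of WT with overlapping hearts. The difference of -1.26 FPKM was -2.13 without WT2368, -2.22 without both WT2368 and SRAKO2371, and -0.673 without WT2378. Camk2g supplied 49.0% to 51.2% of that sum in WT and 44.6% to 50.8% in SRAKO. Camk2d supplied 21.3% to 26.7% and 16.2% to 28.4%, with SRAKO2371 holding the lowest share.

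**Figure D2:**
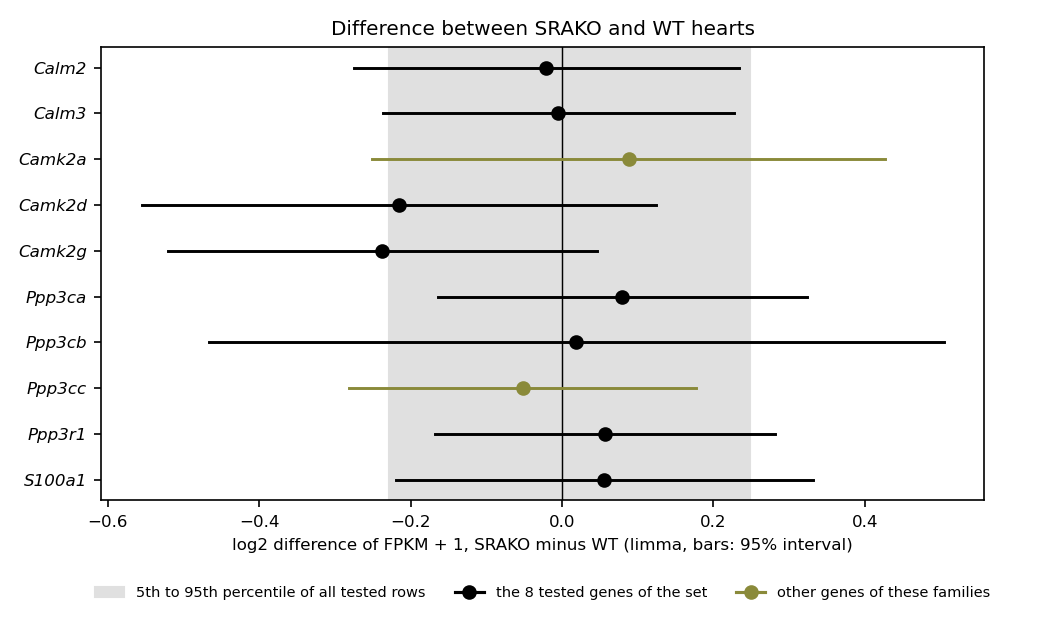
Points give the log2 difference of FPKM + 1, SRAKO minus WT, with 95% intervals from limma as bars, for the 8 tested genes of the set (black) and for Camk2a and Ppp3cc (olive). The intervals of the 8 genes cross 0, and the grey band marks the 5th to 95th percentile of all tested rows, from -0.23 to 0.25.

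Ppp3ca and Ppp3cb encode the catalytic A subunits alpha and beta of calcineurin. Ppp3ca had FPKM of 3.29, 3.13 and 2.63 in WT2368, WT2379 and WT2378 and 3.12, 2.99 and 3.61 in SRAKO2365, SRAKO2371 and SRAKO2372. WT2378 was the lowest heart and SRAKO2372 the highest, with the other 4 close together. The means were 3.02 ± 0.347 and 3.24 ± 0.330 (SD, n = 3 each), and the log2 difference was 0.08 with a 95% interval from -0.16 to 0.32 (limma, Benjamini-Hochberg adjusted p = 0.999). The locus of Ppp3ca is chr3:136670124-136937727 (plus strand).

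Ppp3cb had FPKM of 2.99, 4.16 and 2.26 in the WT hearts and 3.66, 2.17 and 3.72 in the SRAKO hearts, in the same order. SRAKO2371 and WT2378 were low, and WT2379, SRAKO2372 and SRAKO2365 were high, so that the split ran across the genotypes. The means were 3.14 ± 0.959 and 3.18 ± 0.879 (SD, n = 3 each). The log2 difference of 0.02 had the widest 95% interval of the set, from -0.47 to 0.50 (limma, Benjamini-Hochberg adjusted p = 0.999). In units of FPKM + 1 that interval is 0.724-fold to 1.42-fold, which understates the range in FPKM itself at so low a level. Ppp3cb sits at chr14:20499364-20546573 (minus strand), on the chromosome that also carries Camk2g.

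Ppp3r1, the regulatory B subunit that binds calcium, had FPKM of 7.19, 8.57 and 8.24 in the WT hearts and 8.11, 8.43 and 8.48 in the SRAKO hearts. WT2368 was the lowest and the other 5 hearts lay within 8.11 to 8.57. The means were 8.001 ± 0.722 and 8.34 ± 0.202 (SD, n = 3 each), a log2 difference of 0.06 with a 95% interval from -0.17 to 0.28 (limma, Benjamini-Hochberg adjusted p = 0.999). The row joins 2 transcripts of Ppp3r1 with 2 of the neighbouring gene Wdr92, so the value covers both genes. The gene itself spans chr11:17159263-17200375 (plus strand).

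Ppp3cc, the gamma catalytic subunit outside the set, was the most abundant catalytic gene by FPKM, at 8.83, 8.77 and 10.1 in WT and 9.44, 8.68 and 8.503 in SRAKO. Its row holds 1 transcript of 1970 bases, while Ppp3cb has 9 transcripts over 8809 bases, so the limit on lengths given above applies here too. Together the catalytic genes summed to 15.1, 16.1 and 15.0 in WT2368, WT2379 and WT2378 and 16.2, 13.8 and 15.8 in SRAKO2365, SRAKO2371 and SRAKO2372. The SRAKO mean was 99.4% of WT. Ppp3cc made up 54.6% to 67.5% of the sum in WT and 53.7% to 62.7% in SRAKO. Ppp3r2, the other B subunit, known from testis, was listed at no more than 0.0288. The sums are a description: with 3 hearts against 3 an exact two-sided permutation test cannot go below p = 0.1.

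**Figure D3:**
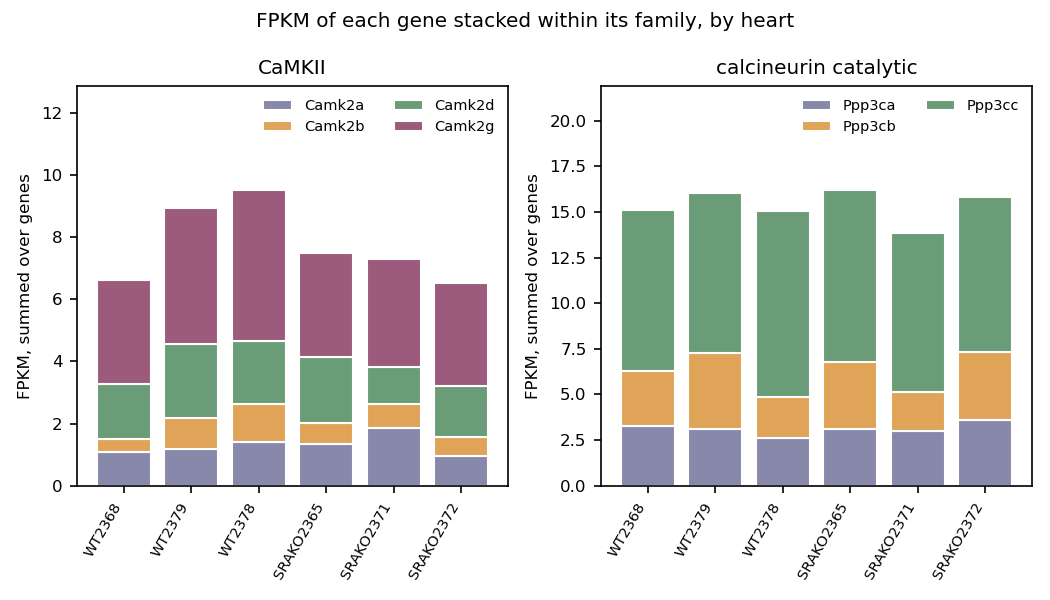
Bars stack the FPKM of each gene (vertical axis from 0) within the CaMKII and the calcineurin catalytic families for each of the 6 hearts. CaMKII totals run from 6.54 in SRAKO2372 to 9.53 in WT2378, and calcineurin totals from 13.8 in SRAKO2371 to 16.2 in SRAKO2365, with the genotypes overlapping in both.

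S100a1 had FPKM of 654, 731 and 774 in WT2368, WT2379 and WT2378 and 696, 798 and 748 in SRAKO2365, SRAKO2371 and SRAKO2372. SRAKO2371 was the highest heart and WT2368 the lowest, and the rest alternated between genotypes. The means were 720 ± 60.8 and 747 ± 51.2 (SD, n = 3 each). The log2 difference was 0.06 with a 95% interval from -0.22 to 0.33, which is 0.859-fold to 1.26-fold in FPKM + 1 (limma, Benjamini-Hochberg adjusted p = 0.999). The locus of S100a1 is chr3:90511034-90514392 (minus strand).

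Of 12 S100 genes 8 were tested, S100a1 among them, 7 above and 1 below 0, with a median log2 difference of 0.12 and 0 called by limma with Benjamini-Hochberg adjustment (2 at an unadjusted p under 0.05, both higher). Of the 10201 tested rows 3.46% had such a p, and 46.5% of the 10201 lay below 0. The S100 median was 0.045 without WT2368 and 0.020 without both WT2368 and SRAKO2371. S100a6 was at 3.22, 3.53 and 4.28 in WT and 4.30, 8.22 and 6.23 in SRAKO, with no overlap. S100a8 and S100a9, which neutrophils carry, were at 0.571 ± 0.832 against 4.70 ± 4.22 and at 2.74 ± 3.30 against 17.9 ± 16.2 (SD, n = 3 each), with hearts overlapping. Neutrophil markers, a list of 5 that includes both, summed to 1.205 to 10.6 in WT and 3.19 to 52.5 in SRAKO, with SRAKO2372 highest; their part in these S100 values was not tested. Macrophage markers, also 5 genes, summed to 48.2 to 58.1 in WT and 61.1 to 67.1 in SRAKO, and their part was not tested either. Of the 5, C1qa did not overlap, at 23.5 to 32.7 and 35.1 to 38.2, and Cd68, Csf1r, Cd163 and Adgre1 overlapped. Adipocyte markers, again 5 genes, summed to 12.8, 9.997 and 31.7 in WT and 8.27, 149 and 71.2 in SRAKO, with SRAKO2371 highest as for S100a6. The part of fat tissue in S100a6 was not tested.

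Genes around the set were read from 10 lists of 82 genes, of which 61 were tested. Limma with Benjamini-Hochberg adjustment called 0 of the 61 (smallest unadjusted p = 0.0163, for S100a6), 2 had an unadjusted p under 0.05, and 35 lay below 0 and 26 above. Of all tested rows, 3.46% had an unadjusted p under 0.05 and 46.5% lay below 0. Groups did not overlap in 2 of 9 calcineurin inhibitors and partners and in 2 of 10 other calmodulin-binding genes, all with SRAKO lower. Groups also did not overlap in 1 gene each of the S100 family, the other kinases and the list with Camk2n1, with SRAKO higher. In 1 of the CaMKII substrates they did not overlap either, with SRAKO lower. Over all tested rows the share was 8.05%. The median log2 difference was -0.02, against 0.01 over all tested rows.

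Camk2n1, an inhibitor of CaMKII, was at 4.11, 4.68 and 4.77 in WT2368, WT2379 and WT2378 and 5.16, 4.99 and 6.09 in SRAKO2365, SRAKO2371 and SRAKO2372. Every SRAKO heart lay above every WT heart, with a log2 difference of 0.21 (limma, Benjamini-Hochberg adjusted p = 0.999). Among 5 substrates of CaMKII in the cardiomyocyte, 3 lay above and 2 below 0, with a median of 0.03 and 0 called. The sign of that median turned without WT2368 (-0.11), without both WT2368 and SRAKO2371 (-0.07), without SRAKO2372 (-0.04) and with array weights (-0.06). Ryr2, the calcium release channel, was at 36.7, 38.4 and 34.4 in WT and 33.9, 29.2 and 33.7 in SRAKO, also without overlap. The channel subunit Cacnb2 was at 3.33 ± 0.871 and 2.39 ± 0.353 and phospholamban, Pln, which restrains the calcium pump of the sarcoplasmic reticulum, at 184 ± 19.0 and 188 ± 11.6 (SD, n = 3 each), both with overlapping hearts.

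Other calmodulin-dependent kinases had 3 of 10 tested genes above and 7 below 0, with a median of -0.03 and 0 called. The smooth muscle myosin kinase Mylk was at 3.08 ± 0.143 in WT and 3.62 ± 0.497 in SRAKO, Pnck at 2.74 ± 0.354 and 2.303 ± 0.253, and Mylk4 at 16.9 ± 1.74 and 14.6 ± 2.75 (SD, n = 3 each). The lowest SRAKO heart for Mylk (3.34) lay above the highest WT heart (3.16). Smooth muscle markers, the sum of 5 genes, were at 180 to 268 in WT and 243 to 249 in SRAKO. Of the 5, Myh11 did not overlap, at 10.2 to 14.3 and 15.6 to 17.1, and Acta2, Tagln, Cnn1 and Smtn overlapped, with Cnn1 at 3.78 to 7.22 and 5.19 to 6.34. Their part in Mylk was not tested.

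Inhibitors and partners of calcineurin had 3 of 9 tested genes above and 6 below 0, with a median of -0.04 and 0 called. Myoz2, calsarcin-1, which tethers calcineurin at the Z-disc, was at 149.9, 150.5 and 161 in WT2368, WT2379 and WT2378 and 144, 138 and 145 in SRAKO2365, SRAKO2371 and SRAKO2372. The groups did not overlap and the log2 difference was -0.11 (limma, Benjamini-Hochberg adjusted p = 0.999). Lmcd1 was at 17.2, 34.4 and 18.2 in WT and 15.04, 20.95 and 15.5 in SRAKO, so that WT2379 alone stood high. Cabin1, an inhibitor of calcineurin, was at 3.64 ± 0.351 and 3.90 ± 0.158 (SD, n = 3 each). Rcan1, a calcineurin inhibitor that is itself induced through NFAT and was named after its values were seen, was at 12.8, 45.2 and 20.4 in WT and 15.96, 19.9 and 19.3 in SRAKO. WT2379 again stood high. It also had the most atrial marker RNA, a sum over 5 genes of 8439 against 2482 to 3743 in the other 5 hearts, whose part in Lmcd1 and Rcan1 was not tested. For Rcan1 the log2 difference of -0.31 had a 95% interval from -1.198 to 0.58.

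NFAT and MEF2 factors with the class IIa deacetylases had 2 of 9 tested genes above and 7 below 0, with a median of -0.01 and 0 called. Mef2d was at 10.9 ± 1.88 and 9.87 ± 0.506, Hdac5 (in a row with Mir8101) at 7.96 ± 1.24 and 8.49 ± 0.535, and Nfatc4 at 1.48 ± 0.182 and 1.60 ± 0.220 (SD, n = 3 each). All 3 had overlapping hearts. Other proteins that bind calmodulin had 3 of 10 above and 7 below 0, with a median of -0.05 and 0 called. In that list the scaffold striatin, Strn, was at 2.01, 2.09 and 1.98 in WT and 1.65, 1.71 and 1.68 in SRAKO, a log2 difference of -0.18 with no overlap (limma, Benjamini-Hochberg adjusted p = 0.999, unadjusted p = 0.0553). Sptan1, alpha-spectrin, was at 18.0 ± 0.783 and 15.7 ± 0.744, also with no overlap, and Iqgap1 at 2.77 ± 0.281 and 2.38 ± 0.249, with overlapping hearts (SD, n = 3 each).

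**Figure D4:**
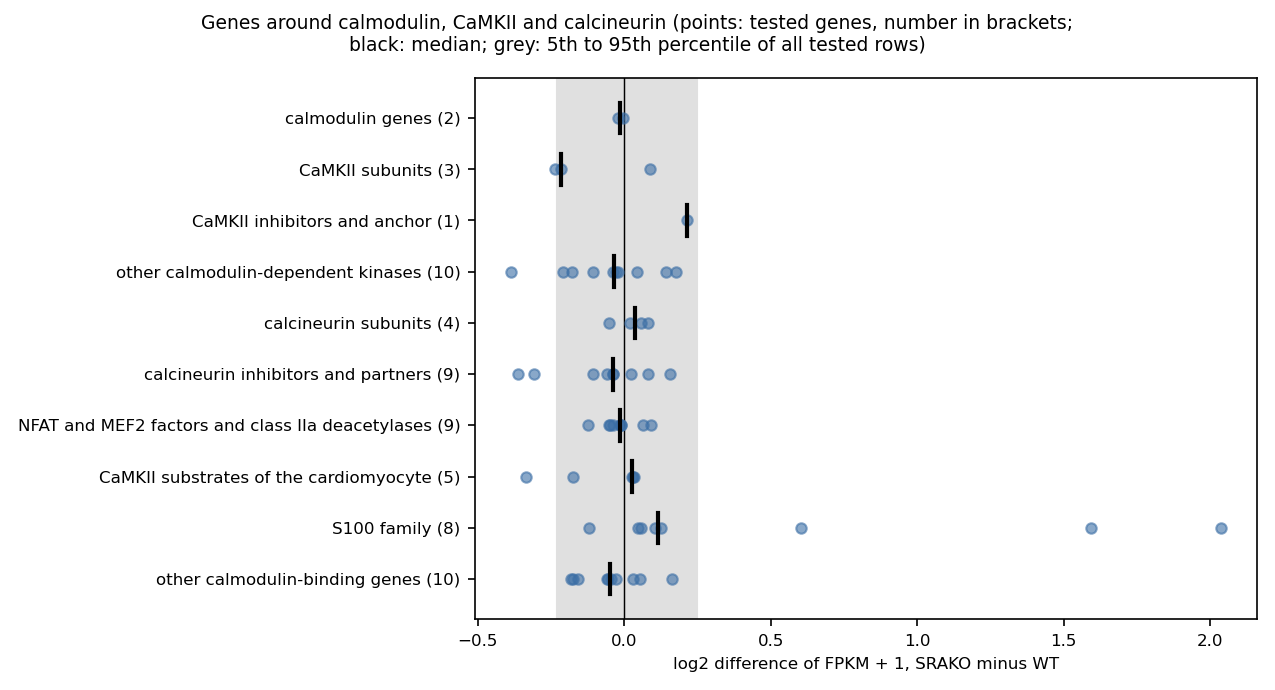
Each point is the log2 difference of FPKM + 1, SRAKO minus WT, of 1 tested gene in 10 lists around calmodulin, CaMKII and calcineurin, with the list's median as a black bar. Medians lie between -0.22 (CaMKII subunits) and 0.21 (the list with Camk2n1 as its only tested gene). Points above the grey band, the 5th to 95th percentile of all tested rows, include S100a6 at 0.60 and S100a9 at 2.04. Points below it include Camk2g at -0.24, Rcan1 at -0.31, Cacnb2 at -0.34 and Lmcd1 at -0.36. The lowest point is in the list of other calmodulin-dependent kinases, at -0.39.

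The genes most like each leading gene across the 6 hearts were taken by Pearson's r of log2(FPKM + 1), as a description of 6 points that share library and depth. They are the 3 rows with a symbol that had the highest r among the 10201 tested rows. The r that such a pick gives for unrelated rows was not computed. For Calm3 the genes picked were Rraga, Cst3 and Gps1 with r from 0.991 to 0.997. For Camk2g they were Mgl2, the row of Sco2 and Tymp, and Cnot1 with r from 0.984 to 0.996. For Ppp3cb they were Gng2, Ddx3x and Actr2 with r from 0.977 to 0.994. For S100a1 they were Gm4737, Gm4366 and the row of Churc1 and Fntb with r from 0.995 to 0.999.

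Within the set, hearts did not fall in 1 order. Calm3 and S100a1 had r = 0.83, Ppp3r1 and S100a1 0.79 and Calm3 and Ppp3r1 0.76, and WT2368 was the lowest heart in each of these 3 genes. Camk2g and Ppp3ca had r = -0.74. Camk2d and Camk2g had r = 0.50, Ppp3ca and Ppp3cb 0.65 and Calm2 and Calm3 0.32. WT2368 was also the lowest heart for Camk2b, and SRAKO2371 the lowest for Camk2d and Ppp3cb. These are the hearts with more mitochondrial ribosomal RNA, whose part in these values was not tested beyond the fits without these hearts.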

How the data were processed

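Poly(A) RNA of 6 hearts was sequenced, and the authors deposited FPKM per row for each heart, per the file headers. The tools named in the submitters' processing notes are StringTie 1.3.4d, HISAT2 2.0.4, edgeR and cutadapt 1.9. The same notes name the build hg38, although the identifiers are of mouse. Positions and sequences come from GENCODE M21 (GRCm38) through the transcript identifiers, 99.6% of which matched. Reads were not analysed here. Low values rose in steps that were taken as 1 aligned base each. They were whole within 0.05 for 54.9% to 69.5% of the 51 to 78 low rows per heart, so no count test was run.

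Groups come from the sample titles. Log2(FPKM + 1) was fitted in R 4.3.3 with limma 3.58.1 (variance trend, genotype only) over the 10201 rows with FPKM of at least 1 in at least 3 hearts, two-sided, Benjamini-Hochberg threshold 0.05. The code was tested on simulated data. Alternatives were a pseudocount of 0.1, other filters, quantile normalization, array weights, a batch term for WT2368 and SRAKO2371, leaving out hearts and summing rows of a symbol.

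The genes and lists were chosen with earlier results of these data known. Genes named are the set, other members of its families, up to 3 tested genes per list with the smallest p, and the 3 rows most correlated with each leading gene; Rcan1 was added after its values were seen. Sums and shares of a family were planned with an exact test, whose p-values are not printed because a set chosen in this way gives no score to test. Some results of the related gene lists are not reported here.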

Additional observations from a re-analysis of the deposited data

How the results depend on the processing

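Of the set 0 genes were called in any of the 14 alternatives, which tested 8 genes each except for 4 with an FPKM of at least 5 and 9 without a filter, the single fit that held Camk2b. Over all tested rows 2 were called, against 1 with a pseudocount of 0.1, 1 with an FPKM of at least 5, 0 without a filter, 0 with a batch term for WT2368 and SRAKO2371, 0 without both of these hearts, and 0 to 6 with 1 heart fewer (0 without WT2368, 5 without WT2379, 6 without WT2378 and 4 without SRAKO2371). In the lists 0 genes were called under each of the 14 alternatives. Camk2d and Camk2g stayed below 0 and Ppp3ca above 0 in every alternative that tested them. Camk2d ran from -0.34 to -0.08, Camk2g from -0.38 to -0.14 and Ppp3ca from 0.01 to 0.17. Dropping the filter, adding the batch term or summing rows left the estimates of these 3 genes as in the main fit. Those fits therefore could not turn a sign. A filter at an FPKM of 5 left these 3 and Ppp3cb untested. With both WT2368 and SRAKO2371 left out the sign turned for Ppp3r1 (-0.017), S100a1 (-0.060), the Camk2d share of CaMKII (2.76 percentage points) and the calcineurin catalytic sum (0.490 FPKM), and with array weights for Ppp3cb (-0.0013). With 1 heart left out the log2 difference ran from -0.073 to 0.058 for Calm2, -0.056 to 0.027 for Calm3, -0.14 to 0.21 for Ppp3cb, -0.0100 to 0.10 for Ppp3r1 and -0.012 to 0.11 for S100a1. In the same fits the SRAKO minus WT difference ran from -2.20 to 0.864 percentage points for the Camk2b share, -4.13 to 1.95 for Camk2d, -2.27 to 3.17 for Ppp3cb and -4.76 to 1.69 for Ppp3cc, and from -0.561 to 0.633 FPKM for the calcineurin sum and -2.13 to -0.673 FPKM for the CaMKII sum. With 1 heart left out the list medians changed sign for the calmodulin genes (-0.052 to 0.037), other kinases (-0.099 to 0.016), calcineurin subunits (-0.0039 to 0.10), calcineurin inhibitors (-0.075 to 0.016), NFAT and MEF2 factors (-0.10 to 0.072) and CaMKII substrates (-0.11 to 0.075); other calmodulin-binding genes were at -0.13 without WT2368, from -0.05 with all hearts. The cause of these turns was not tested. No paired analysis was possible because the titles give each heart a number of its own. The read counts behind each FPKM are unknown, so counting error cannot be set apart from the spread between hearts.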
